A study of Mus musculus with 2 samples.

Results

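The 8 genes described here, Odc1, Amd1, Srm, Sms, Sat1, Oaz1, Oaz2 and Azin1, make, acetylate or control the polyamines. They were chosen by name, with their read counts in these libraries already known, out of 14198 annotated genes with reads, so their levels are a description with no test. They account for 98 of 82272 transcript models in replicate 1 and 82 of 78691 in replicate 2. The cells were C2C12, a mouse myoblast line obtained from thigh muscle of the C3H strain following a crush injury. Total RNA was read as long cDNA reads in 1 group of 2 biological replicates. No genotype, treatment, time or age is labelled beyond that, and both replicates are the same established line. Nothing in the labels says whether the cells were kept as growing myoblasts.

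Polyamines are small, positively charged molecules that bind RNA and DNA and are needed for translation and growth. Ornithine decarboxylase, the product of Odc1, makes putrescine, and spermidine and spermine synthase (Srm and Sms) extend it with groups supplied by the product of Amd1. Sat1 encodes the acetyltransferase that starts polyamine breakdown and export. Antizymes (Oaz1 and Oaz2) bind ornithine decarboxylase, send it to the proteasome without ubiquitin and restrain polyamine uptake. The antizyme inhibitor (Azin1) resembles ornithine decarboxylase, has no enzyme activity and draws antizyme away. Antizyme mRNA holds a stop codon early in its reading frame, and high polyamines make the ribosome slip forward by 1 base there and read on.

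The data were counts of reads per transcript model. Replicate 1 held 791850 reads, of which 773408 (97.7%) lay on annotated genes, and replicate 2 held 735077 reads, of which 722647 (98.3%) did. Levels are given as counts per 1000000 annotated-gene reads (CPM), and 3 reads, the limit that a count of 0 allows, corresponded to 3.88 CPM in replicate 1 and 4.15 CPM in replicate 2. The 6 myoblast and early muscle markers Myod1, Myf5, Myog, Des, Cdh15 and Mymk all had reads and summed to 2481 CPM in replicate 1 and 2914 CPM in replicate 2. Of 9 markers of other cell types, Cdh5, Ptprc, Epcam, Adipoq and Plin1 had 0 reads and the other 4 together had 5 reads in replicate 1 and 4 in replicate 2. Complete models means those classed as annotated, as a new combination of annotated splice sites, or as having a new splice site. They held 84% of the reads on annotated genes (replicate 1) and 88.3% (replicate 2). Being in these classes does not make a read full length. Some unannotated ones lacked the start codon, and some annotated ones were retained-intron transcripts. Intervals given below are 95% intervals and cover counting error only, with each read counted as independent. Reads carry no molecular identifier, so repeated copies of 1 molecule could not be set apart.

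The slip site is shown for both antizymes, because the annotation and the main read models differ there. The windows below are coding bases of the transcript strand from GENCODE M21 transcripts on mm10 (GRCm38), Oaz1 at chr10:80828262-80828322 and Oaz2 at chr9:65686239-65686299, both on the plus strand. Capitals mark the stop codon of the starting frame.
Oaz1: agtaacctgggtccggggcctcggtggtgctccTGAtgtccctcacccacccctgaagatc
Oaz2: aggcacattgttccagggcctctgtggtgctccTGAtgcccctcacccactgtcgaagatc
The windows share 49 of 61 bases (80.3%), of which 15 lie in 1 identical run, GTGGTGCTCCTGATG, that contains the stop. The agreement covered 26 of the 33 bases before the stop and 20 of the 25 after it.

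Read from the annotated start codon without a slip, the Oaz1 frame stopped after 68 codons and the Oaz2 frame after 32 codons, at the capitals above. With the T of that stop codon left out, as the slip leaves it unread, the Oaz1 frame ran for 227 codons to a TAG stop at chr10:80829002 and the Oaz2 frame for 189 codons to a TAA stop at chr9:65689223. Both are the annotated stops. The annotation writes this reading rule as an intron. Some transcripts carry a 1-base intron on that T, at chr10:80828295 in Oaz1 and chr9:65686272 in Oaz2. Another transcript of each gene carries a 4-base intron on TCCT (chr10:80828292-80828295 and chr9:65686269-65686272), which gives frames of 226 codons in Oaz1 and 188 codons in Oaz2. In all, 4 of 7 annotated Oaz1 transcripts and 3 of 7 annotated Oaz2 transcripts held such a gap.

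No read model of either gene held the gap. In Oaz1, 1599 of 1637 reads in replicate 1 (97.7%, Wilson interval 96.8% to 98.3%) and 1463 of 1484 in replicate 2 (98.6%, interval 97.8% to 99.1%) lay on models that crossed the site within 1 exon. In Oaz2 the same held for 147 of 158 reads in replicate 1 (93%, interval 88% to 96.1%) and 181 of 186 in replicate 2 (97.3%, interval 93.9% to 98.8%). By counting error alone, the 0 gapped reads allow up to 0.188% (replicate 1) and 0.205% (replicate 2) of Oaz1 reads over the site. For Oaz2 the limits are 2.04% and 1.66%. They apply to reads filed on gapped models only. No model of any gene held so short an intron, so they set no limit on molecules that lack those bases. The remaining reads skipped the exon (6 and 7 Oaz1 reads, 1 and 0 Oaz2 reads) or did not reach it (32 and 14 Oaz1 reads, 10 and 5 Oaz2 reads, replicate 1 first). The shortest intron in any model with reads was 33 bases in both libraries, among all genes, so the models hold no intron as short as these gaps. Whether a read lacked those few bases within an exon is not recorded in the models and cannot be told from them.

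**Figure D1:**
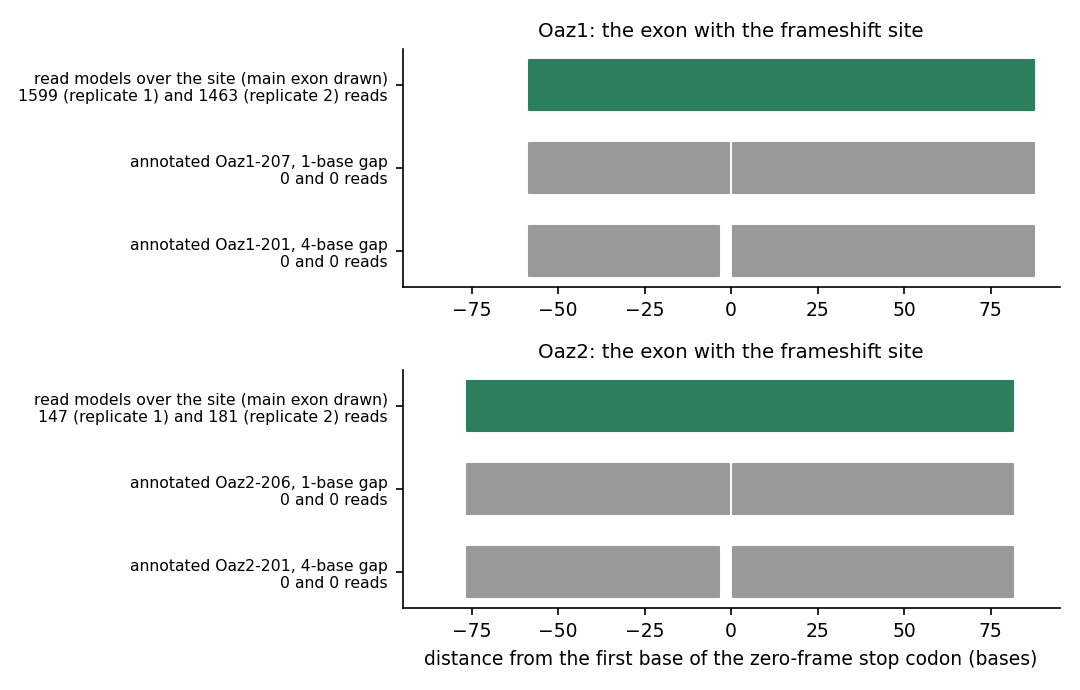
Exon with the slip site in Oaz1 (upper panel) and Oaz2 (lower panel), by distance in bases from the first base of the starting-frame stop codon. Green bars are the main exon of the read models over the site (1599 and 1463 Oaz1 reads, 147 and 181 Oaz2 reads in replicates 1 and 2), and grey bars are annotated transcripts with the 1-base or 4-base gap, which held 0 reads.

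All reads of Oaz1 and Oaz2 were filed under unannotated models. None of the 7 annotated transcripts of Oaz1 had a read in either library. By counting error alone that allows an annotated share of at most 0.183% in replicate 1 and 0.202% in replicate 2. None of the 7 of Oaz2 had a read either, which allows at most 1.9% and 1.61%. No model of any gene held so short a gap, so for gapped transcripts these limits describe the filing of reads only. Among the 4960 genes with at least 20 reads in each library, 84 (1.69%) had no read on an annotated transcript, and Oaz1 and Oaz2 were among them. Among the 1447 genes with at least 100 reads in each library there were 16 such genes (1.11%), again with both antizymes. The annotation holds an intron of at most 10 bases in 277 of its 141767 transcripts, from 237 genes. No model with such an intron had a read in either library, in any gene. Of the 14 genes with such an intron and at least 20 reads in each library, 4 had no annotated reads; besides the antizymes these were Tnnt2 and Gm3608, named after their values were seen. Among the 4946 genes without one it was 80 (1.62%).

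The main structure of each gene was the annotated splice pattern with the gap closed. The annotated transcripts without a gap differ from it in other introns. It is of a class called NIC, for a new combination of annotated splice sites, and spans 5 exons in each gene. It held 1496 Oaz1 reads in replicate 1 (91.4%, interval 89.9% to 92.7%) and 1368 in replicate 2 (92.2%, interval 90.7% to 93.4%). In Oaz2 it held 131 reads in replicate 1 (82.9%, interval 76.3% to 88%) and 155 in replicate 2 (83.3%, interval 77.3% to 88%). In both libraries and both genes it was the most used structure.

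Around it, Oaz1 had 9 further unannotated complete structures found with the same introns in both libraries, with 80 reads in replicate 1 (4.89% of the gene's reads) and 76 in replicate 2 (5.12%). One of them kept the annotated stop. It used a splice acceptor 6 bases downstream at chr10:80828243, before the slip site, in 15 and 16 reads (replicates 1 and 2). That acceptor is annotated, in a transcript that carries the 1-base gap. The frame of this structure, 225 codons, was 2 codons shorter. The largest used a splice donor 4 bases downstream, at chr10:80828800, in 25 and 21 reads, and its shifted frame ended after 196 codons. An acceptor 22 bases downstream, at chr10:80828893, was used in 19 and 14 reads and gave 190 codons. An acceptor 8 bases downstream, at chr10:80828719, had 8 and 6 reads and gave 166 codons, and a donor 4 bases downstream, at chr10:80828386, had 5 and 6 reads and gave 110 codons. A structure without the exon that holds the slip site had 4 and 7 reads, and its frame ended after 52 codons. The 8 structures that ended at another stop together held 65 reads in replicate 1 (3.97%) and 60 in replicate 2 (4.04%). The use of the main structure against all others gave a two-sided Fisher's exact p = 0.529 between the libraries for Oaz1 (94.6% of complete reads in replicate 1, 94.1% in replicate 2, adjusted p = 1). A further 9 and 11 reads, classed as a truncated form, kept the last intron, with a frame of 222 codons.

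In Oaz2, 3 further shared structures held 13 reads in replicate 1 (8.23%) and 21 in replicate 2 (11.3%). The main one used an acceptor 3 bases downstream, at chr9:65686199, in 8 and 14 reads and removed 1 codon (188 codons, annotated stop). A structure without the fourth exon had 4 and 6 reads and a frame of 129 codons. A structure with an exon 37104 bases upstream, inside the annotated neighbour Rbpms2 on the same strand, had 1 read in each library. Of the 8 structures with at least 5 reads in each library over all the genes described here, 6 were of Oaz1 and 2 of Oaz2.

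**Figure D2:**
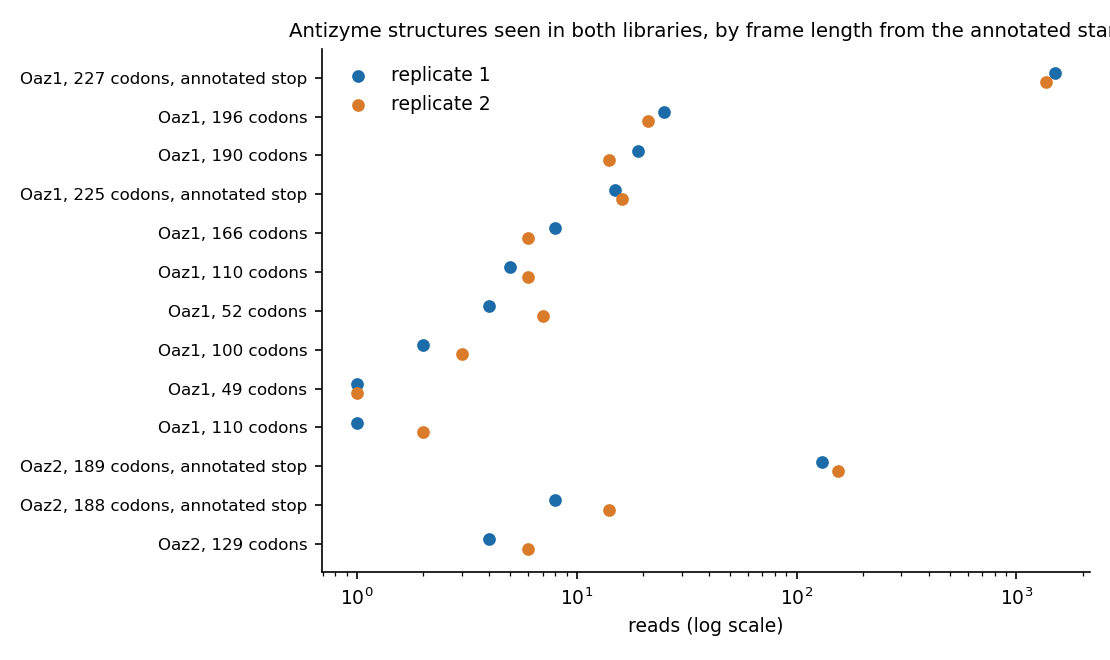
Reads (log axis) of each unannotated complete Oaz1 and Oaz2 structure that was found in both libraries and holds the annotated start codon. Replicate 1 is in blue and replicate 2 in orange. The shared Oaz2 structure with an exon inside Rbpms2 lacks that codon and is not drawn. Each row is labelled with the codons from the annotated start to the first stop, with the slip base left out where the structure holds it; the main structures (1496 and 1368 Oaz1 reads, 131 and 155 Oaz2 reads) stand far to the right of the others, which have at most 25 reads.

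Oaz1 was read far more than the other genes. It had 1637 reads (2117 CPM) in replicate 1 and 1484 reads (2054 CPM) in replicate 2, a mean of 2085 ± 44.6 CPM (SD, n = 2), and ranked number 42 of all annotated genes. It made up 60.5% of the reads of the 8 genes in replicate 1 and 62.4% in replicate 2. Oaz2, its less abundant relative, had 158 reads (204 CPM) in replicate 1 and 186 reads (257 CPM) in replicate 2, with a mean of 231 ± 37.5 CPM. There were 10.4 Oaz1 reads per Oaz2 read in replicate 1 and 7.98 in replicate 2. Oaz3, the testis antizyme, had 0 reads in both libraries. The antizyme target Odc1 had 100 reads (129 CPM) in replicate 1 and 57 reads (78.9 CPM) in replicate 2, so Oaz1 reads outnumbered Odc1 reads 16.4 to 1 in replicate 1 and 26 to 1 in replicate 2. Azin1 was the lowest of the 8, with 39 reads (50.4 CPM) in replicate 1 and 32 reads (44.3 CPM) in replicate 2. These are RNA levels, and the reads carry no measure of how often the ribosome shifted.

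The processed pseudogene Oaz1-ps on chromosome 17 limits how exactly Oaz1 reads can be placed. Over its 685 bases it matched the main Oaz1 structure in 1 block without gaps, with 684 identical bases and 1 mismatch. Its annotated transcript held 78 reads in replicate 1 and 58 in replicate 2, equal to 4.76% and 3.91% of the Oaz1 reads, and these could belong to either locus. Of the other 7 annotated pseudogenes whose symbols match the gene names, Sms-ps, Amd-ps3 and Oaz2-ps had between 1 and 4 reads per library and the remaining 4 had none.

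Among the enzymes, Sat1 was the most abundant, with 454 reads (587 CPM) in replicate 1 and 353 reads (488 CPM) in replicate 2, and a mean of 538 ± 69.7 CPM. Srm had 191 reads (247 CPM) in replicate 1 and 176 reads (244 CPM) in replicate 2. Amd1, the decarboxylase that supplies the aminopropyl donor, had 74 reads (95.7 CPM) in replicate 1 and 35 reads (48.4 CPM) in replicate 2. Sms had 51 reads (65.9 CPM) in replicate 1 and 56 reads (77.5 CPM) in replicate 2. In order of mean CPM the genes ran Oaz1, Sat1, Srm, Oaz2, Odc1, Amd1, Sms and Azin1. Srm and Oaz2 (245 ± 2.41 and 231 ± 37.5 CPM), Odc1 and Amd1 (104 ± 35.7 and 72.1 ± 33.4 CPM), and Amd1 and Sms (72.1 ± 33.4 and 71.7 ± 8.17 CPM) lay within their spread, while the other neighbours did not overlap between libraries. One long read stands for 1 cDNA, so CPM needs no length correction, but long transcripts may be read in full less often. Per kilobase of mean model length the levels ran from 2230 ± 47.7 CPM per kb for Oaz1 to 12.2 ± 1.12 for Azin1, and only Sms (29.2 ± 3.32) and Amd1 (23.2 ± 10.7) changed places. The Oaz1 length, 935 bases, depends on recorded model ends. Its main model was 1069 bases long in replicate 1 and 790 in replicate 2.

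**Figure D3:**
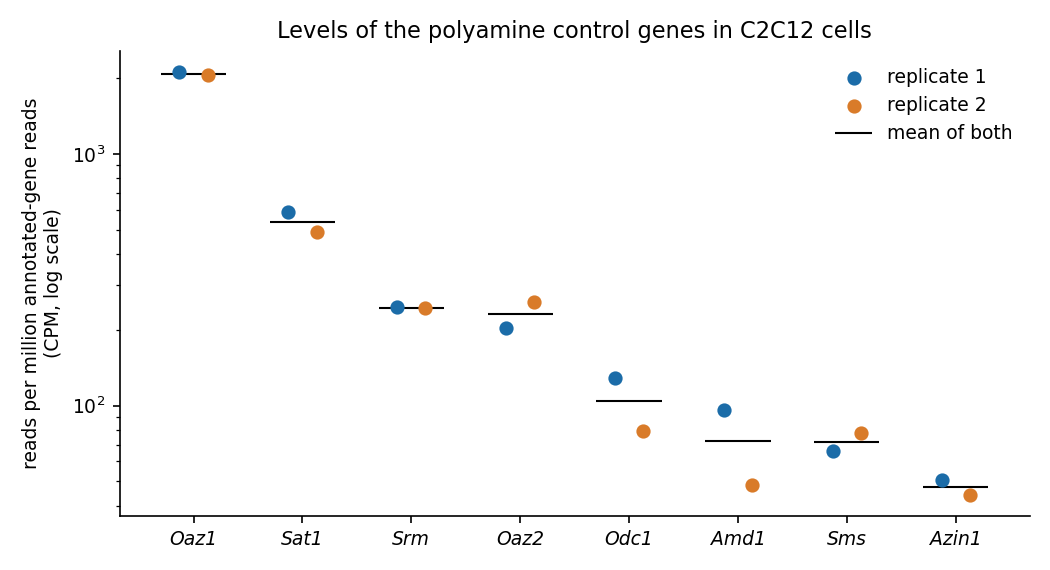
Level of each gene in CPM (log axis), with replicate 1 in blue on the left, replicate 2 in orange on the right and the mean of both as a line. Oaz1 stands near 2085 CPM, above Sat1 at 538 CPM, and the replicates lie furthest apart for Odc1 and Amd1.

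Of the 2 regulated decarboxylases of the pathway, Amd1 was higher in replicate 1, and Odc1, with 100 reads in replicate 1 and 57 in replicate 2, did not pass the test. The test was a two-sided exact binomial test of each gene's reads against the library totals over 8940 genes with at least 10 reads, with Benjamini-Hochberg adjustment. It compares these 2 libraries under counting error and not a condition. It called 356 genes (3.98%), of which 232 (2.6% of those tested) were higher in replicate 1; with TMM scaling the split was 303 higher and 82 lower, and with DESeq2 size factors 315 higher and 78 lower. Of the 8 genes it called 1, Amd1 (log2 ratio of replicate 1 over replicate 2 of 0.97, interval 0.38 to 1.61, exact binomial adjusted p = 0.0238). Odc1 had a log2 ratio of 0.71 (interval 0.23 to 1.21) and an adjusted p = 0.0669 in the exact binomial test, and it was called in 4 of 6 alternative settings. Sat1 had a log2 ratio of 0.26 (interval 0.06 to 0.47, exact binomial adjusted p = 0.143) and was called in 3 of 6. Among these settings, an offset of 2 reads changes the ratio only and could not change a call. For Oaz2 the log2 ratio was -0.33 (interval -0.65 to -0.02, exact binomial adjusted p = 0.297). Oaz1, with its many reads, had the narrowest interval, -0.06 to 0.15 around a log2 ratio of 0.04, and Srm (0.02), Azin1 (0.18, and -0.13 with complete models only) and Sms (-0.23) had intervals that include 0. The median log2 ratio of the 8 genes was 0.11, beside -0.06 over all genes tested, whose central 95% ran from -1.13 to 1.30. Of the 6 muscle markers, Myf5 was higher in replicate 1 (215 reads, against 60 in replicate 2, log2 ratio 1.73, exact binomial adjusted p = 1.05e-16). Des was lower in replicate 1 (881 reads, against 1187 in replicate 2, log2 ratio -0.53, exact binomial adjusted p = 5.84e-14), and the other 4 did not pass. The part of these differences in the ratios of Amd1 and Odc1 was not tested. The edgeR biological coefficient of variation between the libraries was 0.136.

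**Figure D4:**
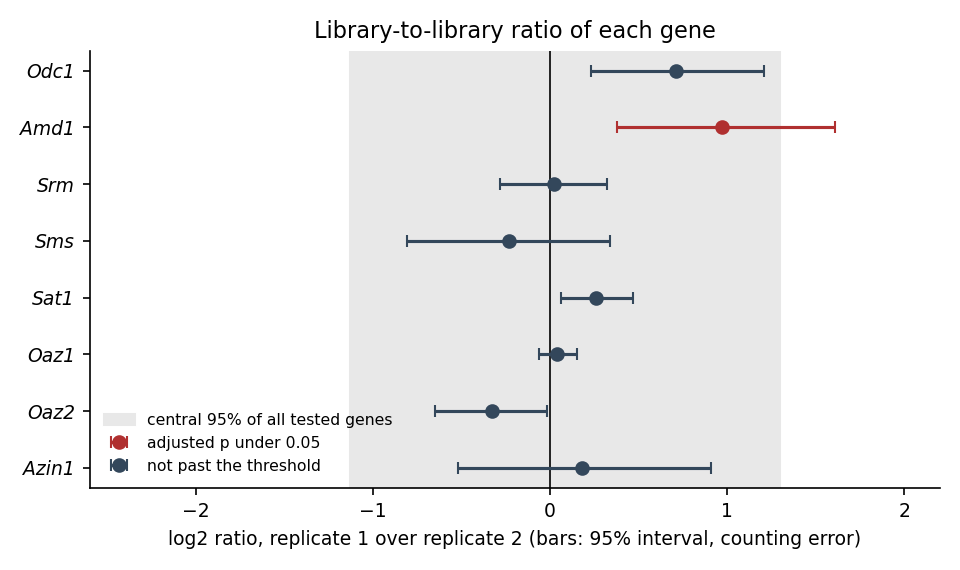
Log2 ratio of replicate 1 over replicate 2 for each gene, with its 95% interval from counting error; the grey band is the central 95% of all tested genes (-1.13 to 1.30). Amd1 (0.97, red) is past the adjusted threshold of 0.05, and Odc1 (0.71) lies next to it.

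The share of complete reads was lowest in Sms and Azin1 in both libraries. Complete models took 58.8% of Sms reads in replicate 1 (interval 45.2% to 71.2%) and 69.6% in replicate 2 (interval 56.7% to 80.1%). They took 66.7% of Azin1 reads in replicate 1 (interval 51% to 79.4%) and 87.5% in replicate 2 (interval 71.9% to 95%). In Odc1, Amd1, Srm, Sat1, Oaz1 and Oaz2 the share lay between 92.4% and 98% in each library, above the 84% and 88.3% of all annotated genes. Replicate 2 had the higher complete share over all genes as well, and its part in these values was not tested. Azin1, Amd1 and Sms had the longest mean models, at 3882, 3111 and 2459 bases.

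**Figure D5:**
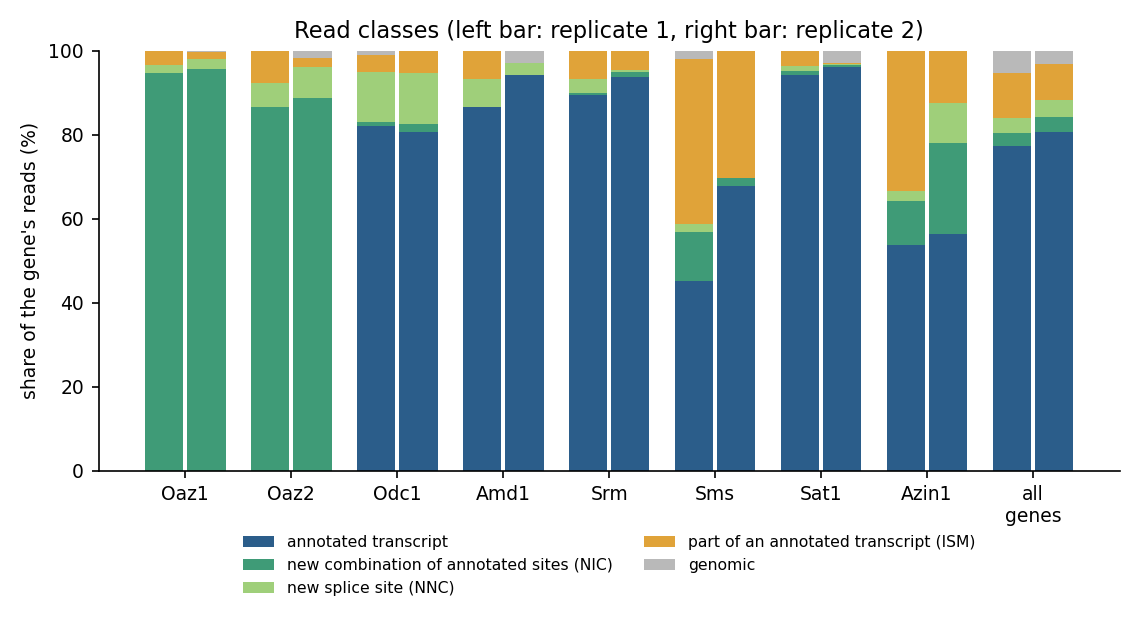
Share of each gene's reads by class of transcript model, in percent, for replicate 1 (left bar) and replicate 2 (right bar), with all annotated genes at the right. Oaz1 and Oaz2 have 0% on annotated transcripts and 94.6% to 95.6% (Oaz1) and 86.7% to 88.7% (Oaz2) in the NIC class, while Sms and Azin1 have the largest shares of partial reads (ISM).

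A recurrent partial form made up much of Sms. It consisted of the first 3 of 11 exons and held 15 of 51 reads in replicate 1 (29.4%, interval 18.7% to 43%) and 15 of 56 in replicate 2 (26.8%, interval 17% to 39.6%). In both libraries the model ended at the annotated exon border at chrX:157466398. The 15 reads of each library share 1 model with 1 recorded end, so where the reads themselves ended cannot be told. Its frame ran through 88 of the 366 Sms codons with no stop before the end. The annotated transcript with all 11 exons held 21 reads in replicate 1 and 37 in replicate 2. The intron chrX:157460417-157461175 was kept in 7 complete-class reads of replicate 1 and 2 of replicate 2, of which 2 and 1 lay on an annotated retained-intron transcript. The most read such form had 5 reads in replicate 1, and its frame ended after 225 codons. Among complete reads, the annotated transcript took 21 of 30 in replicate 1 (70%) and 37 of 39 in replicate 2 (94.9%). Fisher's exact test gave a two-sided p = 0.0074 and an adjusted p = 0.752 for that difference, over 4011 genes of which 4 (0.0997%) were called. No gene described here was called in this test of structure use.

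Sat1 has an alternative exon that is textbook background in polyamine control. Its inclusion brings in an early stop and sends the mRNA to nonsense-mediated decay, and high polyamines favour skipping it. The exon lies at chrX:155215121-155215230 on the minus strand, 110 bases within a 1466-base intron. Its first 30 bases (chrX:155215201-155215230, GENCODE M21) are shown because they hold the stop of the preceding frame, in capitals.
Sat1: gttacagtctcTAGcttcgccatgtacatg
The frame from the Sat1 start ended there after 71 codons, with the stop beginning at base 12 of the exon, against 171 codons without the exon. Reads that spanned the interval included the exon in 3 of 415 cases in replicate 1 (0.723%, Wilson interval 0.246% to 2.1%) and 3 of 336 in replicate 2 (0.893%, interval 0.304% to 2.59%). They joined the flanking exons directly in 409 and 331 cases. A further 2 reads of replicate 1 were spliced into the same exon but kept the intron after it, with the same frame of 71 codons. With these, 5 of 415 reads in replicate 1 (1.2%, interval 0.516% to 2.79%) and 3 of 336 in replicate 2 (0.893%) used the exon's acceptor, a count chosen after the data were seen. Another read of replicate 2 ran through the exon and both its introns unspliced. RNA that is degraded is counted less than it is made, so these are shares of the RNA present.

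The main annotated Sat1 transcript held 396 reads in replicate 1 (87.2%) and 323 in replicate 2 (91.5%). An annotated retained-intron transcript of Sat1 was the most frequent other form in replicate 1, with 22 reads (4.85%, interval 3.22% to 7.23%), against 6 in replicate 2 (1.7%, interval 0.781% to 3.66%). Reads on models with 1 exon were about as frequent in both libraries, with 13 in replicate 1 (2.86%) and 10 in replicate 2 (2.83%). Those of replicate 1 lay within the last exon, and those of replicate 2 ran through introns in the 3′ part of the gene. A second annotated coding transcript, whose last exon but one is longer, had 4 reads in replicate 1 and 6 in replicate 2. Over the 8 genes, 1 of 6 annotated nonsense-mediated decay transcripts had reads, the Sat1 form above. Of 18 annotated retained-intron transcripts 3 did, with 27 reads in replicate 1 and 8 in replicate 2.

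Most reads of the other genes lay on models with the full coding exons, except in Sms in replicate 1. The exons from start to stop codon were those of the main coding transcript in 89% of Odc1 reads in replicate 1 and 86% in replicate 2, in 86.5% and 94.3% of Amd1 reads, and in 90.1% and 93.8% of Srm reads (replicate 1 first). In Azin1 the shares were 61.5% and 62.5%, and in Sms 41.2% and 66.1%. Odc1 had a shared structure with an acceptor 3 bases downstream, at chr12:17547286, in 6 reads of replicate 1 and 2 of replicate 2. It lies before the start codon and left the frame at 461 codons. In Azin1 an acceptor 3 bases downstream, at chr15:38492356, had 2 reads in replicate 1 and 5 in replicate 2 and removed 1 of 448 codons. An annotated Azin1 transcript with an added exon ahead of the start codon had 3 reads in replicate 1 and 1 in replicate 2, against 18 and 17 reads for the main one.

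The 3′ ends of the models fell into 1 main group for Odc1, Amd1, Srm, Sat1 and Oaz2, which held between 93.2% and 100% of reads in each library. Sms had 6 groups, of which the largest took 41.2% of reads in replicate 1 and 67.9% in replicate 2. Azin1 had 3 groups. The end at chr15:38487427 took 46.2% of reads in replicate 1 and 53.1% in replicate 2, the group from chr15:38488238 to chr15:38488241 took 38.5% and 31.2%, and the group from chr15:38489795 to chr15:38489796 took 15.4% and 15.6%. The first group holds 18 and 17 reads of the main annotated transcript, whose recorded end is the annotated one. These shares therefore describe the models to which reads were assigned, not where the reads ended. For Oaz1 the ends are not comparable between libraries. Reads with the same introns share 1 model with 1 recorded end, which stood at chr10:80829005 for the 1368 reads of the main structure in replicate 2 and in the group from chr10:80829284 to chr10:80829290 for all 1637 reads of replicate 1.

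The wider pathway, a fixed list of 28 other genes, was read unevenly. Of these, 19 had at least 10 reads over both libraries and 5 had none (Arg1, Arg2, Agmat, Oaz3 and Slc12a8). Arginase (Arg1 and Arg2), which supplies ornithine, was therefore not detected at this depth. The highest was Eif5a, the translation factor that carries hypusine made from spermidine, with 1523 reads in replicate 1 and 1415 in replicate 2 (1964 ± 7.87 CPM). The hypusine-forming enzymes Dhps (122 ± 15.3 CPM) and Dohh (174 ± 8.35 CPM) were also read. All 9 genes of the methionine cycle and salvage, which supply and recycle the aminopropyl donor, had reads. Mat2a (204 ± 9.1 CPM), Mtap (150 ± 27), Mat2b (110 ± 16.6) and Got1 (109 ± 20.3) led them, and Enoph1 (58.5 ± 15.1), Mri1 (57.8 ± 14.1), Adi1 (55.6 ± 3.61), Ahcy (53.2 ± 16.7) and Apip (40 ± 5.64) followed. The oxidases of breakdown were low, with 26.1 ± 0.306 CPM for Paox and 19.5 ± 3.77 for Smox, and Sat2, the relative of Sat1, had 14 ± 0.272 CPM. The transport list held Slc3a2 (271 ± 37.6 CPM), Atp13a2 (14.8 ± 2.6), a lysosomal polyamine exporter, and Slc18b1 (10.8 ± 2.41), and Azin2, the second antizyme inhibitor, had 14.8 ± 4.49 CPM. None of these 19 genes was called between the libraries in either direction, beside 3.98% of all genes tested. Their median log2 ratio was -0.31, beside -0.06 over all genes tested.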

How the data were processed

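Long-read RNA-seq of C2C12 cells, 2 libraries of 1 group, was deposited by the authors as raw counts of reads per transcript model, with a GTF of models on mm10 and GENCODE M21, per the file headers and the accompanying text. Models carry TALON identifiers and classes, per the file headers; for the aligner, its settings and read filters the sources used here give nothing. Here counts were summed per gene, scaled to CPM over annotated-gene reads (791850 and 735077 reads in all, replicate 1 first) and compared by exact binomial and Fisher's exact tests (SciPy 1.17.1) with an offset of 0.5 reads in ratios; both tests were also run on simulated data. TMM and DESeq2 factors came from edgeR 4.0.16 and DESeq2 1.42.0. Bases and frames were read from GENCODE M21 transcripts. Structures were matched by exact introns, and a gap is an intron of at most 10 bases. Nothing says that the replicates are separate cultures beyond the word biological. The p-values compare these 2 libraries under counting error alone and include no spread between replicates. The genes, lists and tests were chosen with earlier results of these data known. Named were the 8 genes, listed pathway genes with at least 10 reads, pseudogenes, and each gene's leading and shared structures.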

Additional observations from a re-analysis of the deposited data

How the results depend on the processing

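Each choice was changed alone. The count of genes differing between the libraries, 356, ranged from 301 with no read filter to 406 with at least 50 reads, and the count of genes with shifted structure use stayed at 4. Amd1 stayed past the threshold in all 6 alternatives (log2 ratio 0.94 to 1.03, exact binomial adjusted p from 0.0127 to 0.0379). Among these, the offset of 2 reads enters the ratio only, so it could not change whether a gene passed. Odc1 passed in 4 of 6 (adjusted p from 0.0349 to 0.106) and Sat1 in 3 of 6 (0.0369 to 0.225), and the cause was not tested. The other 5 genes passed in none, and Azin1 turned from 0.18 to -0.13 with complete models only. TMM shifted all log2 ratios by 0.05 and DESeq2 factors by 0.06 towards replicate 1. Over all reads, the Srm level was 240 CPM. Among complete models it was 269 CPM, against 53.6 CPM for Sms, 2356 CPM for Oaz1 and 41.9 CPM for Azin1; these shift because partial reads leave both counts and totals. Leaving out one replicate gave the other library's level for each gene, from 44.3 CPM for Azin1 to 2117 CPM for Oaz1. Of 20 shared structures, 8 had at least 5 reads in each library. Mean inclusion of the Sat1 exon, 0.808%, was 1.05% with reads that use its acceptor and keep the next intron, an alternative chosen after seeing the data; 2 reads of replicate 1 make this difference. Gap reads stayed at 0 with a limit of 30 bases and among complete models. Neither change could alter this count, because no model with reads held an intron shorter than 33 bases. With the annotated class alone, the complete share fell to 0 for Oaz1 and Oaz2. Depth limits Azin1, Sms, Amd1 and Odc1 most, with at most 100 reads per library. No paired analysis was possible because the series has 1 group.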

Other observations

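Beside the structures described above, 1 Srm read of replicate 1 continued into 4 exons of the downstream gene Masp2 on the same strand, the nearest of them 7675 bases beyond the annotated end of Srm. Replicate 2 had 2 Oaz2 reads that began in the exon 37104 bases upstream, inside Rbpms2, and replicate 1 had 1. In all, 77 unannotated complete structures of the 8 genes were seen, of which 20 occurred in both libraries. These 20 held 1732 of 1774 such reads in replicate 1 and 1631 of 1659 in replicate 2. Most were reads of the main Oaz1 and Oaz2 structures, the annotated splice patterns with the gap closed. Those had 1496 and 131 reads in replicate 1, and 1368 and 155 in replicate 2. In the other 6 genes, 6 of 45 such structures occurred in both libraries, with 12 of 47 reads in replicate 1 and 11 of 26 in replicate 2.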
